A study of Mus musculus with 12 samples.

Results

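Type I interferon-stimulated antiviral genes were described in alloreactive mouse T cells sorted with or without Foxp3, which defines regulatory T cells. The 39 genes of the list were chosen by name, from sensors of viral nucleic acid to effector proteins, and 37 of them were measured among 22180 genes in all. This list and the pathway and marker lists below were chosen with earlier results of these data known. Their shares beside all genes therefore describe the lists and are no independent test. Dtx3l was listed only on a probe set that carried several gene symbols, and Ifi44 was not analysed here. RNA of sorted T cells was hybridised to 12 Affymetrix arrays in 4 groups of 3, replicates A to C. All T cells came from C57BL6-Foxp3-GFP mice, in which green fluorescent protein reports Foxp3, so every group carries the reporter. They were stimulated by CD11c-positive dendritic cells of BALB/c mice. Control wells held IL-2 at 5 ng/mL and gave GFP-negative cells. Wells with added TGF-β (5 ng/mL) and 40 nM retinoic acid beside the same IL-2 gave GFP-positive cells. Culture lasted 4 days for CD8 and 5 days for CD4 cells, and pooled wells were stained for CD4, CD8 and CD25 and sorted. Each cell type thus has a control and a Foxp3-positive group. The treatment and the sort changed together, as did the cell type and the length of culture, and neither pair can be told apart. The labels do not say that replicates came from separate animals or cultures, so p-values measure the spread between these arrays, which may be technical. In such sorted bulk samples a smaller share of responding cells and less RNA per cell cannot be told apart.

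Type I interferons bind the receptor Ifnar1 and Ifnar2, whose kinases Jak1 and Tyk2 phosphorylate Stat2. Stat2 and Irf9 belong to a complex that binds the interferon-stimulated response element (ISRE) in the promoters of its targets. The targets detect viral RNA and DNA, degrade RNA, block translation, trap virions and feed back on the pathway. T cells both respond to interferon and are restrained or driven by it, depending on its timing.

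The promoters of 5 members are shown because they hold the ISRE core in members of 4 roles that the values below turn on. The letters are RefSeq sequence of the build GRCm38.p6, read 5′ to 3′ on the strand of the gene, and capitals mark each match to the core GAAA-NN-GAAA (N is any base) on either strand. Positions are counted from the annotated start site, which is 0. Ifitm3 lies on chromosome 7, and the stretch chr7:141010715-141010914 (minus strand) runs from -170 to 29 with matches at 2 to 11 and 19 to 28. The Oas3 stretch is chr5:120777660-120777829 (minus strand), the Ifit1 stretch chr19:34640719-34640888 (plus strand), the Bst2 stretch chr8:71537473-71537642 (minus strand) and the Isg15 stretch chr4:156200819-156200988 (minus strand). Those 4 run from -170 to -1, and the Bst2 and Isg15 runs of capitals are overlapping matches.
Ifitm3: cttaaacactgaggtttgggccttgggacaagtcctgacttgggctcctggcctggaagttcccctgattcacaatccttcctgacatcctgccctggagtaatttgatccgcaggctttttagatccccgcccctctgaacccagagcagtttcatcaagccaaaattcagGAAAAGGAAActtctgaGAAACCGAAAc
Oas3: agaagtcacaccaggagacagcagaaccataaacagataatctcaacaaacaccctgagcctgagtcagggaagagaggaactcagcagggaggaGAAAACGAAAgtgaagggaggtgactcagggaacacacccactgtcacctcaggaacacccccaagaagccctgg
Ifit1: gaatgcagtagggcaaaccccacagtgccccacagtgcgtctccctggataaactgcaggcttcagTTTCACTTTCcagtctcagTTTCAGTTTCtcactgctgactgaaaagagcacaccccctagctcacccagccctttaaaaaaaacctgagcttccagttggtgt
Bst2: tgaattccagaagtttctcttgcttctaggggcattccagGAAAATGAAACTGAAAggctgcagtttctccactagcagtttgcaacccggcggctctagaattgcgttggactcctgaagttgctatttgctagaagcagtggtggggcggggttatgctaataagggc
Isg15: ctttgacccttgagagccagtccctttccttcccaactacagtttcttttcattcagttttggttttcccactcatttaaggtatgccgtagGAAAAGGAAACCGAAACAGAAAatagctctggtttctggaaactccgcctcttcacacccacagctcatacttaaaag

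Of the 37 measured members, 28 had a promoter in the RefSeq table, a window of 250 bases before and 50 after a start site. Dhx58, Zbp1, Usp18, Parp9, Parp14, Oas2, Mx1, Mx2 and Rtp4 had none there. The ISRE core was present in some promoter of 12 of the 28 (42.9%), against 3.99% of the 27025 genes in that table. Those 12 were Ifih1, Ddx58, Eif2ak2, Stat2, Isg15, Trim30a, Oas3, Ifit1, Ifit3, Rsad2, Ifitm3 and Bst2. The element of the interferon-γ pathway, GAS, searched as TTCNNNGAA, which reads alike on both strands, was present for 7 of 28 members (25%) and 9.55% of the genes. In 2 promoters of members an ISRE and a GAS match overlapped. A match describes these letters only.

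The sorted markers were read first. The mean log2 level of Foxp3 was 5.66 and 5.76 in the CD8 and CD4 controls and 12.48 and 12.44 in the Foxp3-positive groups. Cd4 read 12.31 and 11.92 in the CD4 groups and at most 5.36 in the CD8 groups. Cd8b1 read 11.86 and 11.97 in CD8 cells, with 7.72 and 6.17 in CD4 control and Foxp3-positive cells. Cd8a read 11.79 and 12.54 in CD8 cells, with 6.51 and 7.54 in the same CD4 groups, so that in CD4 cells it rose (limma adjusted p = 0.0273) where Cd8b1 fell (2.81e-06), both above the median gene. The T cell list, Cd3 chains and related genes, had medians of 11.23 to 11.57 in the 4 groups, with 4 of 6 genes measured. Correlations over all genes ran from 0.992 to 0.995 within groups, and no pair of arrays was identical. For comparison, the median gene had a mean level of 5.60. All levels are on the log2 scale of the deposited table, and levels of different genes cannot be set against each other on arrays.

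Over the 37 members the CD4 control arrays stood apart from all other arrays. The median member level was 9.45, 9.48 and 9.06 on CD4 control arrays A to C, and between 7.22 and 7.74 on the other 9 arrays. The CD4 control had the highest group mean for 35 of 37 members, the exceptions being Sp100 and Ifit3, which were highest in CD8 Foxp3-positive cells. For 32 members all 3 CD4 control arrays lay above the other 9, while this held for 6.58% of all genes. Nmi, Ifi35, Sp100, Ifit2 and Ifit3 were the members that did not have this pattern. The lowest group mean was in CD8 controls for 17 members, in CD4 Foxp3-positive cells for 13, in CD8 Foxp3-positive cells for 6 and in CD4 controls for 1.

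**Figure D1:**
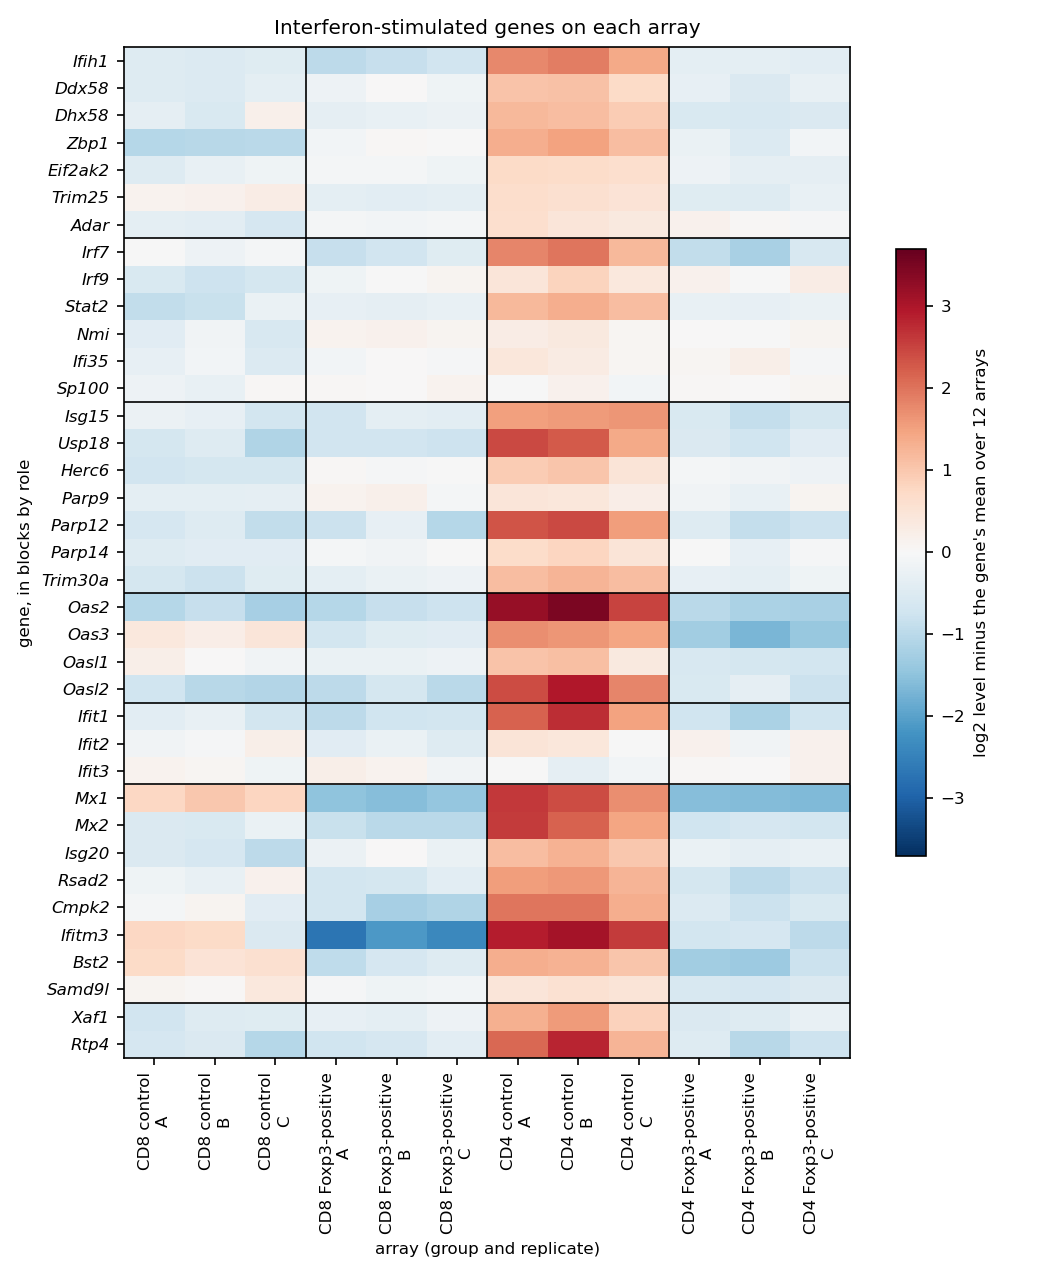
Log2 level of each of the 37 measured genes (rows, in blocks by role) on each of the 12 arrays (columns), shown as the difference from that gene's mean over all arrays. The CD4 control columns are the highest for 32 genes, and the pale rows of Nmi, Ifi35, Sp100, Ifit2 and Ifit3 are the others.

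Array C of the CD4 controls was the lowest of its group for 33 of 37 members, against 34.3% of all genes. Array B was the highest of that group for 23 members. Among CD4 Foxp3-positive arrays, B was the lowest for 26 members, against 37.3% of all genes. The median SD of a member over the 3 arrays of a group was 0.17 and 0.10 for CD8 control and Foxp3-positive cells, and 0.19 and 0.14 for the same CD4 groups. Without CD4 control array C, the count of falls in CD4 cells, described next, was again 32.

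In CD4 cells, interferon-stimulated genes of every role were lower in Foxp3-positive cells than in controls. With limma's test across all genes, 32 of 37 members fell and none rose at an adjusted p under 0.05 (86.5% of members), while 10.4% of all genes fell and 12.1% rose. Of the 32 members, 25 fell at least 2-fold, against 2.75% of all genes. The median log2 fold change over the members was -1.61, against 0.00 over all genes, and the members ranged from -4.18 to 0.23. All sensors and their helpers (7 of 7), all Oas genes (4 of 4) and all other effectors (8 of 8) fell. Isg15 with its enzymes, ubiquitin ligases and PARPs fell too (7 of 7 measured), as did Xaf1 and Rtp4. Among the transcription factors and their partners 3 of 6 fell (Irf7, Irf9 and Stat2), and among the Ifit genes 1 of 3 (Ifit1). The groups' arrays did not overlap for 32 members that were lower, against 17.6% of all genes, and for 1 that was higher (Ifit3), against 20.2%. The call of Irf9 was lost without CD4 control array B, CD4 Foxp3-positive array A or CD4 Foxp3-positive array B, with adjusted p-values of 0.0595 to 0.126 by limma.

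In CD8 cells, the same list was split. By limma, 9 members rose (24.3% of the members) and 8 fell (21.6%), against 9.39% and 10.6% of all genes, and 20 did not pass (20% of all genes were called either way). The rises were those of Zbp1, Herc6, Irf9, Isg20, Nmi, Parp9, Adar, Trim30a and Parp14, of which none reached 2-fold, as 2.3% of all genes did. The falls were those of Ifitm3, Mx1, Bst2, Oas3, Cmpk2, Trim25, Rsad2 and Ifih1, of which Ifitm3, Mx1 and Bst2 exceeded 2-fold, a share of 3 of 37 where 1.32% of all genes fell so far. The median over the members was 0.07, against -0.02 over all genes, with a range from -2.72 to 0.99. Arrays of the groups did not overlap for 12 members that were higher and 14 that were lower, against 15.5% and 18% of all genes. Of the 8 falls 5 were among the 8 other effectors. Of the 9 rises 4 were among the 7 measured members of the role of Isg15, its enzymes, ubiquitin ligases and PARPs. A difference between roles was not tested.

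**Figure D2:**
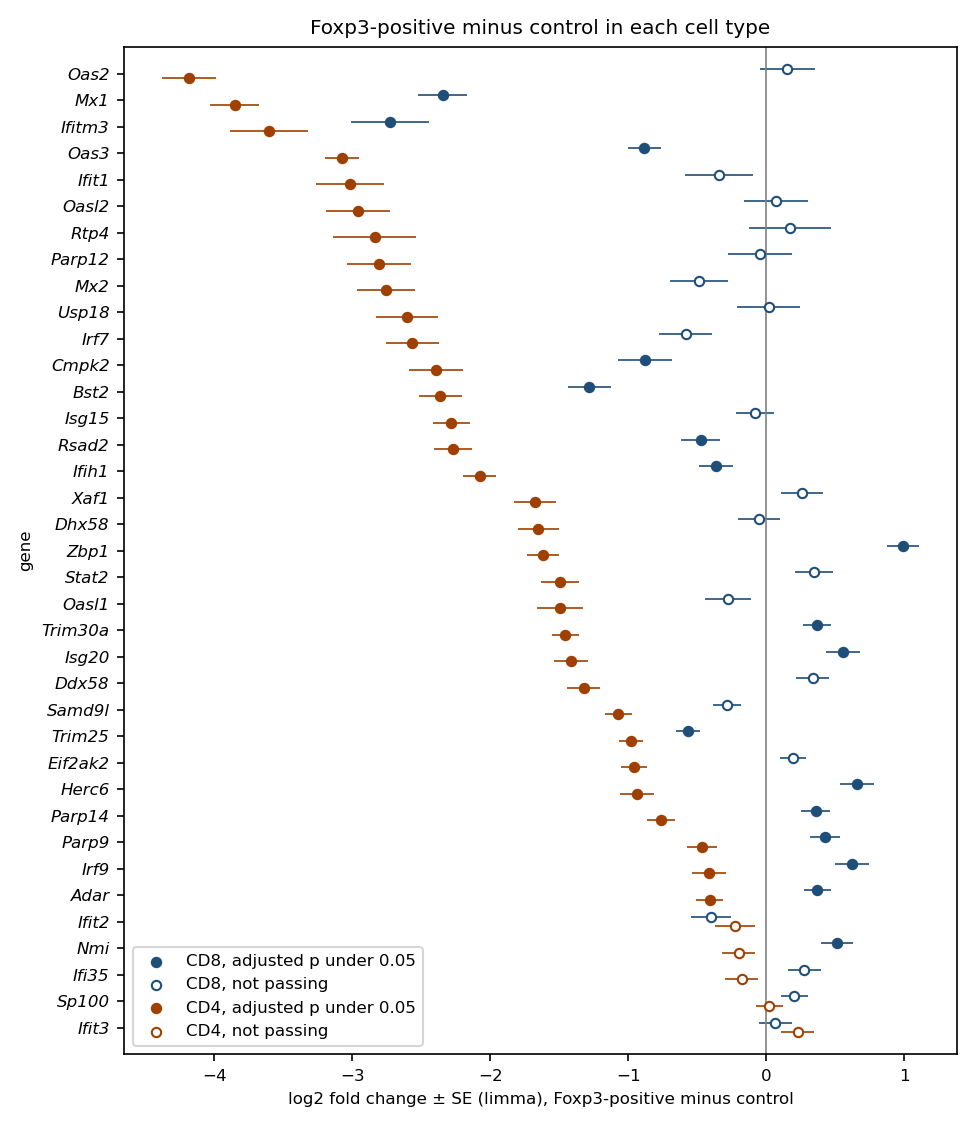
Log2 fold change of Foxp3-positive over control cells with its standard error (limma) for the 37 genes, in CD8 cells (blue) and CD4 cells (brown), with filled points at an adjusted p under 0.05. CD4 values reach -4.18 for Oas2, while CD8 values lie between -2.72 and 0.99.

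Among the sensors, Zbp1, a receptor of Z-form nucleic acid that can start necroptosis, was ordered by group without overlap between each Foxp3-positive group and its control. It stood at log2 levels of 11.33, 11.47 and 11.13 in CD4 controls, with 9.75, 9.46 and 9.88 in CD4 Foxp3-positive cells. In CD8 cells it stood at 8.94, 8.96 and 9.0 in controls and 9.87, 10.03 and 9.97 in Foxp3-positive cells. So it was highest in the CD4 controls and lowest in the CD8 controls, with the Foxp3-positive groups between them and overlapping each other. It fell 3.06-fold in CD4 cells (log2 fold change -1.61 ± 0.12 SE, limma adjusted p = 4.81e-07) and rose 1.99-fold in CD8 cells (0.99 ± 0.12, adjusted p = 4.73e-05).

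Ifih1 (MDA5) and Ddx58 (RIG-I), helicases that detect viral RNA and signal through Mavs, fell 4.22-fold and 2.5-fold in CD4 cells, and Dhx58 (LGP2), a helicase that tunes them, 3.14-fold. In CD8 cells Ifih1 fell by 0.36 on the log2 scale, close to the threshold (limma adjusted p = 0.0498), Ddx58 had a difference of 0.34 (0.0631) and Dhx58 one of -0.05 (0.879). Eif2ak2 (PKR), the kinase that stops translation on double-stranded RNA, fell 1.94-fold in CD4 cells, and its CD8 difference was 0.19 (adjusted p = 0.202). Trim25, a ubiquitin ligase of the RIG-I pathway, fell in both, 1.97-fold in CD4 and 1.48-fold in CD8 cells. Adar, which edits adenosine in double-stranded RNA, fell 1.33-fold in CD4 and rose 1.29-fold in CD8 cells.

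Irf7, the factor that amplifies type I interferon production, had the largest fall of the transcription factors. Its levels were 9.37, 9.56 and 8.78 in CD4 controls, against 6.65, 6.39 and 6.97 in CD4 Foxp3-positive cells, 7.57, 7.39 and 7.51 in CD8 controls and 6.71, 6.88 and 7.13 in CD8 Foxp3-positive cells. Each Foxp3-positive group lay below its control without overlap. The fall in CD4 cells was 5.92-fold (limma adjusted p = 6.48e-07), and the CD8 difference of -0.58 ± 0.19 (log2) did not pass (adjusted p = 0.0507). It passed under 5 of the other settings, namely a trend with a robust prior (0.0317), only genes at or above the median level (0.0232), centred arrays (0.0416), only the CD8 groups (0.0118) and array weights (0.0266).

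The subunits of the factor that binds the ISRE fell by less than Irf7 in CD4 cells. Stat2 fell 2.82-fold in CD4 cells and Irf9 1.33-fold. In CD8 cells Irf9 rose 1.54-fold (log2 0.62 ± 0.12, limma adjusted p = 0.00274), while Stat2 had a difference of 0.35 (adjusted p = 0.109) with overlapping arrays. Nmi, a partner of Stat proteins, rose 1.43-fold in CD8 cells and had a CD4 difference of -0.20 (0.273). Ifi35, its binding partner, and Sp100, a component of nuclear bodies, passed in neither cell type, with CD4 differences of -0.18 and 0.02.

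Isg15, the ubiquitin-like protein that is attached to other proteins during the response, separated the CD4 controls from all other arrays. It was at 7.68, 7.73 and 7.80 in CD4 controls, against 5.60, 5.27 and 5.49 in CD4 Foxp3-positive cells. In the CD8 groups it was at 5.94, 5.85 and 5.48 in controls and 5.46, 5.81 and 5.77 in Foxp3-positive cells, which overlapped. It fell 4.86-fold in CD4 cells (log2 -2.28 ± 0.14, limma adjusted p = 8.46e-08), and its CD8 difference was -0.08 ± 0.14 (adjusted p = 0.777).

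Usp18, the protease that removes Isg15 and damps receptor signalling, was also high in CD4 controls alone. Its levels were 9.32, 9.15 and 8.29 in CD4 controls, with CD4 Foxp3-positive values of 6.34, 6.14 and 6.48, CD8 control values of 6.22, 6.41 and 5.78 and CD8 Foxp3-positive values of 6.19, 6.16 and 6.12. Only the CD4 controls stood clear of the other 3 groups, whose arrays overlapped. The CD4 fall was 6.07-fold (adjusted p = 2.56e-06 by limma), against a CD8 difference of 0.02 ± 0.23 (log2).

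Parp12, an ADP-ribosyltransferase with antiviral activity, read 9.45, 9.57 and 8.69 in CD4 controls, against 6.66, 6.27 and 6.37 in CD4 Foxp3-positive cells. The CD8 values were 6.52, 6.66 and 6.22 in controls and 6.35, 6.83 and 6.09 in Foxp3-positive cells, within one range. Its fall in CD4 cells was 7-fold (log2 -2.81 ± 0.23, limma adjusted p = 1.49e-06), and the CD8 difference was -0.04 ± 0.23. The related Parp9 and Parp14 fell by less in CD4 cells, 1.38-fold and 1.7-fold, and rose in CD8 cells, 1.35-fold and 1.28-fold. Herc6, the mouse ligase that attaches Isg15, fell 1.91-fold in CD4 and rose 1.58-fold in CD8 cells. Trim30a, a tripartite-motif protein, fell 2.74-fold and rose 1.29-fold in the same order.

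The Oas genes encode oligoadenylate synthetases, whose product activates the ribonuclease RNase L, and proteins like them. Oas2 had the largest CD4 difference of all members. It read 10.12, 10.39 and 9.42 in CD4 controls, against 5.92, 5.75 and 5.72 in CD4 Foxp3-positive cells, 5.86, 6.05 and 5.67 in CD8 controls and 5.85, 6.05 and 6.14 in CD8 Foxp3-positive cells. No array outside the CD4 controls exceeded 6.14, and the other 3 groups overlapped. The CD4 fall was 18.1-fold (log2 -4.18 ± 0.20, limma adjusted p = 1.05e-08), and the CD8 difference was 0.15 ± 0.20 (adjusted p = 0.69).

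Oasl2 had the same form, with 8.34, 8.90 and 7.73 in CD4 controls, against 5.36, 5.61 and 5.13 in CD4 Foxp3-positive cells. CD8 controls read 5.19, 4.92 and 4.85 and CD8 Foxp3-positive cells 4.98, 5.27 and 4.93. The CD4 fall was 7.76-fold (limma adjusted p = 9.96e-07), and the CD8 difference was 0.07 ± 0.23 (log2).

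Oas3 differed from both, since all 4 groups lay apart. CD4 controls were highest at 9.64, 9.56 and 9.38, CD8 controls followed at 8.29, 8.16 and 8.37, CD8 Foxp3-positive cells at 7.22, 7.45 and 7.50, and CD4 Foxp3-positive cells were lowest at 6.62, 6.23 and 6.52. Oas3 fell 8.42-fold in CD4 cells (log2 -3.07 ± 0.12, limma adjusted p = 2.25e-09) and 1.84-fold in CD8 cells (-0.88 ± 0.12, adjusted p = 0.000166). Oasl1, a synthetase-like protein without that activity, fell 2.81-fold in CD4 cells and had a CD8 difference of -0.28 (adjusted p = 0.311).

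The 3 Ifit genes, whose proteins bind viral RNA ends and block its translation, did not move together. Ifit1 read 8.65, 9.22 and 7.96 in CD4 controls, against 5.74, 5.30 and 5.75 in CD4 Foxp3-positive cells, with 6.09, 6.20 and 5.79 in CD8 controls and 5.51, 5.76 and 5.79 in CD8 Foxp3-positive cells. It fell 8.09-fold in CD4 cells (log2 -3.02 ± 0.25, limma adjusted p = 1.47e-06). Ifit2 had differences of -0.22 ± 0.14 in CD4 cells (adjusted p = 0.313) and -0.40 ± 0.14 in CD8 cells (0.0705). Ifit3 differed by 0.23 ± 0.12 in CD4 cells (adjusted p = 0.21) and by 0.07 in CD8 cells (0.79). Ifit3 lay between 5.67 and 6.23 on all 12 arrays, and its promoter, like that of Ifit1 printed above, holds a pair of ISRE matches. Ifit, Oas, Mx and Trim30 genes have close copies that probes can share, and their single values are uncertain to that extent.

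**Figure D3:**
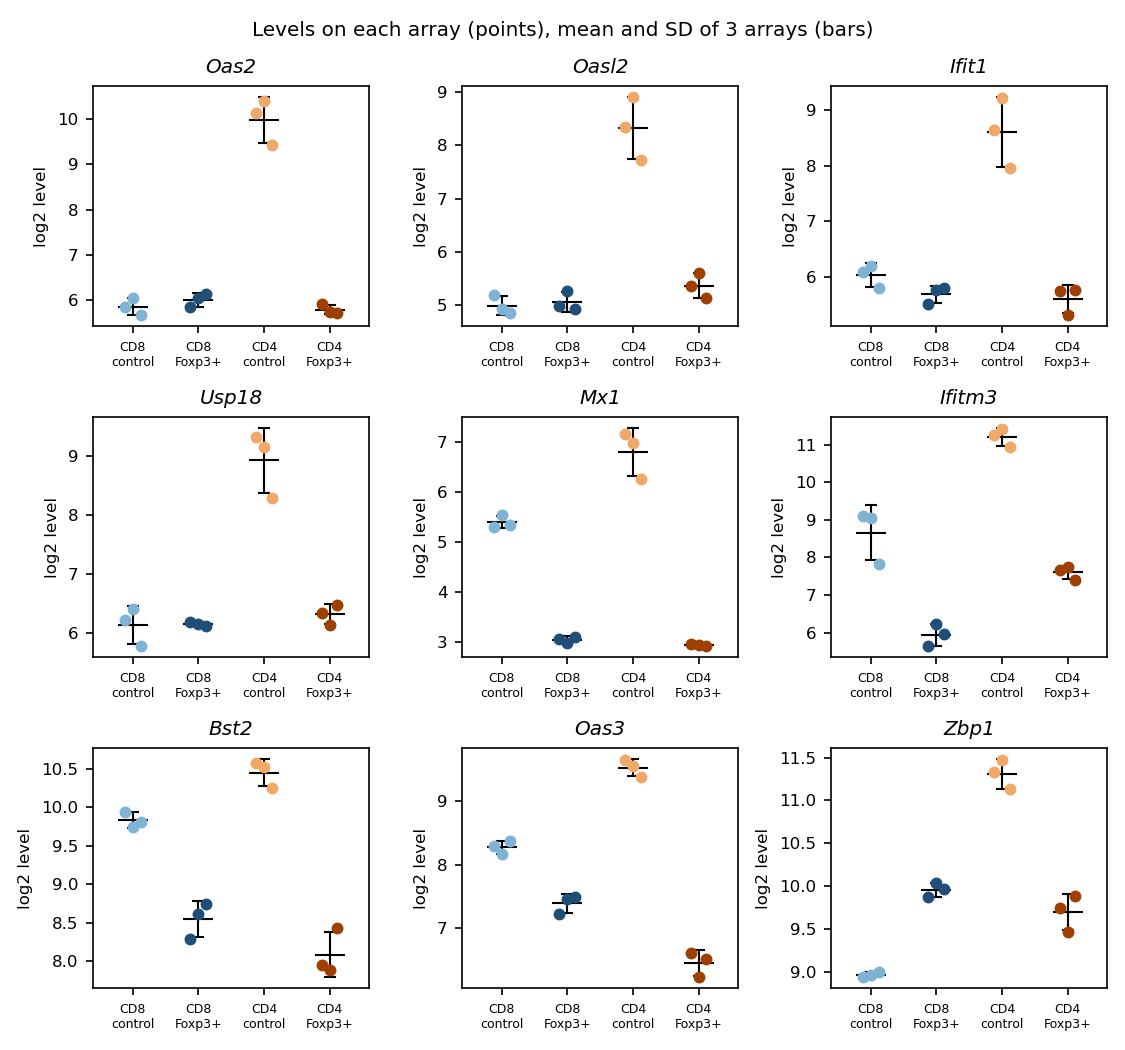
Log2 level of 9 genes on each array (points), with the mean and SD of the 3 arrays of a group (bars). Oas2, Oasl2, Ifit1 and Usp18 are high in CD4 controls alone, Mx1, Ifitm3, Bst2 and Oas3 are lower in Foxp3-positive cells of both types, and Zbp1 is higher in CD8 Foxp3-positive cells than in CD8 controls.

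Ifitm3 and Mx1 had the largest falls of all members in CD8 cells, and in CD4 cells they came next after Oas2. Mx1, a GTPase that restricts influenza virus where the allele is intact, read 7.16, 6.97 and 6.25 in CD4 controls and 5.31, 5.54 and 5.35 in CD8 controls. In Foxp3-positive cells it read 2.97, 2.95 and 2.92 for CD4 and 3.07, 2.98 and 3.11 for CD8, low on the scale of the arrays. Whether these levels stand above background was not tested, so the folds below are those of the deposited levels. The fall was 14.4-fold in CD4 cells (log2 -3.85 ± 0.18, limma adjusted p = 8.06e-09) and 5.08-fold in CD8 cells (-2.35 ± 0.18, adjusted p = 9.56e-07).

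Ifitm3, a membrane protein that blocks fusion of viruses in endosomes, read 11.25, 11.42 and 10.94 in CD4 controls, against 7.68, 7.74 and 7.39 in CD4 Foxp3-positive cells. The CD8 controls read 9.11, 9.05 and 7.83, so that array C was 1 log2 unit or more below the others, and CD8 Foxp3-positive cells read 5.63, 6.22 and 5.95. The groups did not overlap within either cell type. The fall was 12.1-fold in CD4 cells (log2 -3.60 ± 0.28, limma adjusted p = 9.39e-07) and 6.61-fold in CD8 cells (-2.72 ± 0.28, adjusted p = 1.65e-05).

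Bst2 (tetherin), which holds budding virions at the cell surface, read 10.58, 10.53 and 10.25 in CD4 controls, against 7.95, 7.89 and 8.43 in CD4 Foxp3-positive cells. In CD8 cells it read 9.94, 9.74 and 9.81 in controls and 8.29, 8.62 and 8.74 in Foxp3-positive cells. Both controls lay above both Foxp3-positive groups. It fell 5.14-fold in CD4 cells (limma adjusted p = 2.07e-07) and 2.43-fold in CD8 cells (6.25e-05).

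Mx2 read 7.41, 7.02 and 6.28 in CD4 controls, against 4.09, 4.23 and 4.14 in CD4 Foxp3-positive cells, with 4.31, 4.27 and 4.59 in CD8 controls and 4.02, 3.83 and 3.85 in CD8 Foxp3-positive cells. It fell 6.75-fold in CD4 cells (limma adjusted p = 7.78e-07). Unlike Mx1, it did not pass in CD8 cells, where the difference was -0.48 ± 0.21 (adjusted p = 0.142), although the arrays did not overlap. Its levels in both CD8 groups lay below the median gene (5.60), and whether they stand above background was not tested.

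Rsad2 (viperin) makes an altered nucleotide that ends viral RNA chains, and Cmpk2, its neighbour in the genome, is a nucleotide kinase. Rsad2 read 7.37, 7.41 and 7.06 in CD4 controls, against 5.16, 4.84 and 5.03 in CD4 Foxp3-positive cells, 5.64, 5.53 and 5.98 in CD8 controls and 5.14, 5.17 and 5.42 in CD8 Foxp3-positive cells. Cmpk2 read 9.04, 9.05 and 8.41 in CD4 controls, against 6.55, 6.27 and 6.50 in CD4 Foxp3-positive cells, 7.0, 7.17 and 6.65 in CD8 controls and 6.39, 5.84 and 5.95 in CD8 Foxp3-positive cells. For both genes CD4 controls were highest and CD8 controls next by group mean, while the lower 2 groups came in opposite orders. Rsad2 fell 4.82-fold in CD4 and 1.39-fold in CD8 cells, and Cmpk2 5.25-fold and 1.84-fold (limma adjusted p = 1.19e-07, 0.0298, 1.39e-06 and 0.00586 in that order).

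Of the other effectors, Isg20, an exonuclease of single-stranded RNA, fell 2.66-fold in CD4 cells and rose 1.47-fold in CD8 cells. Samd9l, a translation-blocking protein, fell 2.1-fold in CD4 cells and had a CD8 difference of -0.28 (limma adjusted p = 0.0631). Xaf1, a pro-apoptotic protein, fell 3.19-fold in CD4 cells with a CD8 difference of 0.26 (0.291). Rtp4, a receptor transporter induced by interferon, read 9.51, 10.21 and 8.65 in CD4 controls, the widest spread of any group with an SD of 0.78. It read 6.89, 6.35 and 6.61 in CD4 Foxp3-positive cells, 6.75, 6.84 and 6.33 in CD8 controls and 6.66, 6.77 and 7.0 in CD8 Foxp3-positive cells. It fell 7.15-fold in CD4 cells (adjusted p = 1.3e-05), and its CD8 difference was 0.17 ± 0.30.

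Some of the smaller CD8 calls depended on single arrays. Leaving out any single array other than CD8 Foxp3-positive C, CD4 control B or CD4 control C ended the call of Ifih1 (limma adjusted p = 0.06 to 0.177). Parp14 was lost without CD8 control A or B or CD8 Foxp3-positive A or C (0.0558 to 0.0897). Trim30a was lost without CD8 control A or B or CD8 Foxp3-positive B or C (0.0576 to 0.0884). Rsad2 was lost without CD8 control A or C or CD8 Foxp3-positive A or B (0.0536 to 0.112). Adar was lost without CD8 control C or CD8 Foxp3-positive A (0.051 to 0.0561), and Parp9 without CD8 Foxp3-positive B (0.058). Calls were gained too: Irf7 passed as a fall with any 1 of 5 arrays left out (CD8 Foxp3-positive C, CD4 control B or C, CD4 Foxp3-positive B or C; 0.0159 to 0.0464). Stat2 passed as a rise without CD8 control C (0.55, adjusted p = 0.00103), as did Sp100 (0.29, 0.0467). Without CD4 control C, which enters through the shared estimate of the spread, Ddx58 (0.0311), Ifit2 (0.0375) and Mx2 (0.0148) passed, and without CD8 control B Samd9l did (0.0471). The calls of Ifitm3, Mx1, Bst2, Oas3, Cmpk2, Trim25, Zbp1, Herc6, Irf9, Isg20 and Nmi held with every single array left out. Other settings changed calls too (limma adjusted p). Ifih1 was lost with the replicate block (0.0722) and Trim30a with only the CD8 groups (0.055). Ddx58 passed with a trend and robust prior (0.0277), a filter at the median level (0.0254), only the CD8 groups (0.0494) and array weights (0.0337). Samd9l passed with that prior (0.04) and filter (0.0226), and Ifit2 with that filter (0.0313). Mx2 passed with only the CD8 groups (0.0207) and Stat2 with array weights (0.0132).

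The difference between the CD8 and the CD4 effect was tested as an interaction. It passed for 32 of 37 members, all with the CD8 effect above the CD4 effect (86.5% of the members, against 6.01% of all genes in that direction and 13.5% in either), and for 27 it was at least 2-fold, against 2.44% of all genes. The median over the members was 1.60 on the log2 scale, against -0.01 over all genes. It was largest for Oas2 (4.34 ± 0.28, limma adjusted p = 1.27e-06), Oasl2 (3.03 ± 0.33) and Rtp4 (3.01 ± 0.42). In CD8 controls these genes had mean levels of only 5.86, 4.99 and 6.64, where the median gene had 5.60. Whether low levels in CD8 controls limited the falls in CD8 cells, and so enlarged the interaction, was not tested. Ifi35, Sp100, Ifit2, Ifit3 and Ifitm3 did not pass, and for Ifitm3, which fell in both cell types, the difference of effects was 0.87 (adjusted p = 0.187). The call of Trim25 (0.41 ± 0.12, adjusted p = 0.0395) was lost when any single array other than CD8 control C or CD4 Foxp3-positive C was left out (0.0523 to 0.0948). It was also lost with the replicate block (0.0504) and with centred arrays (0.0622). Ifi35 passed with only genes at or above the median level (0.047). The CD4 effect, the interaction and the comparison of the controls below share the CD4 control arrays and are not independent of each other.

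Between the 2 Foxp3-positive groups 33 of 37 members did not pass. By limma, 2 of 37 were higher in CD8 cells (Oas3 and Samd9l) and 2 lower (Ifitm3 and Ifih1), 5.41% each way, while 2.41% of all genes were higher and 2.3% lower. Either way this was 10.8% of the members, against 4.71% of all genes, and rests on 4 genes. The median difference, CD8 minus CD4, was 0.10, against -0.01 over all genes. Oas3 was 1.92-fold higher (log2 0.94 ± 0.12, adjusted p = 0.000579) and Samd9l 1.39-fold higher (0.47 ± 0.10, 0.014), while Ifitm3 was 3.17-fold lower (-1.67 ± 0.28, 0.00377) and Ifih1 had a difference of -0.46 ± 0.12 (0.0465). The arrays of the groups overlapped for 23 members, and 9 were higher and 5 lower without overlap, against 11.3% and 11.4% of all genes. The count of 4 was 2 without CD8 Foxp3-positive A, CD8 Foxp3-positive C, CD4 Foxp3-positive A or CD4 Foxp3-positive B, which each ended the calls of Samd9l (0.0506 to 0.0612) and Ifih1. Ifih1 lost its call with any single array left out other than CD4 control B or C (0.054 to 0.169). Bst2 passed without CD4 Foxp3-positive C (0.63, 0.0274), and Oasl1 without CD4 control C (0.41, 0.0331). A difference that did not pass is not shown to be absent.

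Between the controls, CD8 cells had lower levels than CD4 cells for nearly the whole list. By limma, 34 of 37 members were lower in CD8 controls and none higher (91.9%, against 8.76% of all genes lower and 12.1% higher), and 25 were at least 2-fold lower, against 2.07% of all genes. The arrays did not overlap for 34 members that were lower and none that was higher, against 15.4% and 18.3% of all genes. Ifit2, Ifit3 and Sp100 did not pass, with differences of -0.27, 0.17 and -0.16. The median difference, CD8 minus CD4, was -1.47, against 0.00 over all genes. It was largest for Oas2 (17.4-fold lower, log2 -4.12 ± 0.20, adjusted p = 2.45e-08) and Oasl2 (10.1-fold lower, -3.34 ± 0.23). Smaller differences were those of Bst2 (1.54-fold lower, adjusted p = 0.0122) and Trim25 (1.31-fold, 0.00589). Samd9l (1.24-fold, 0.0393) lost its call without CD8 control A or B, CD8 Foxp3-positive A or C, CD4 control A, B or C, or CD4 Foxp3-positive A (0.0504 to 0.145).

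**Figure D4:**
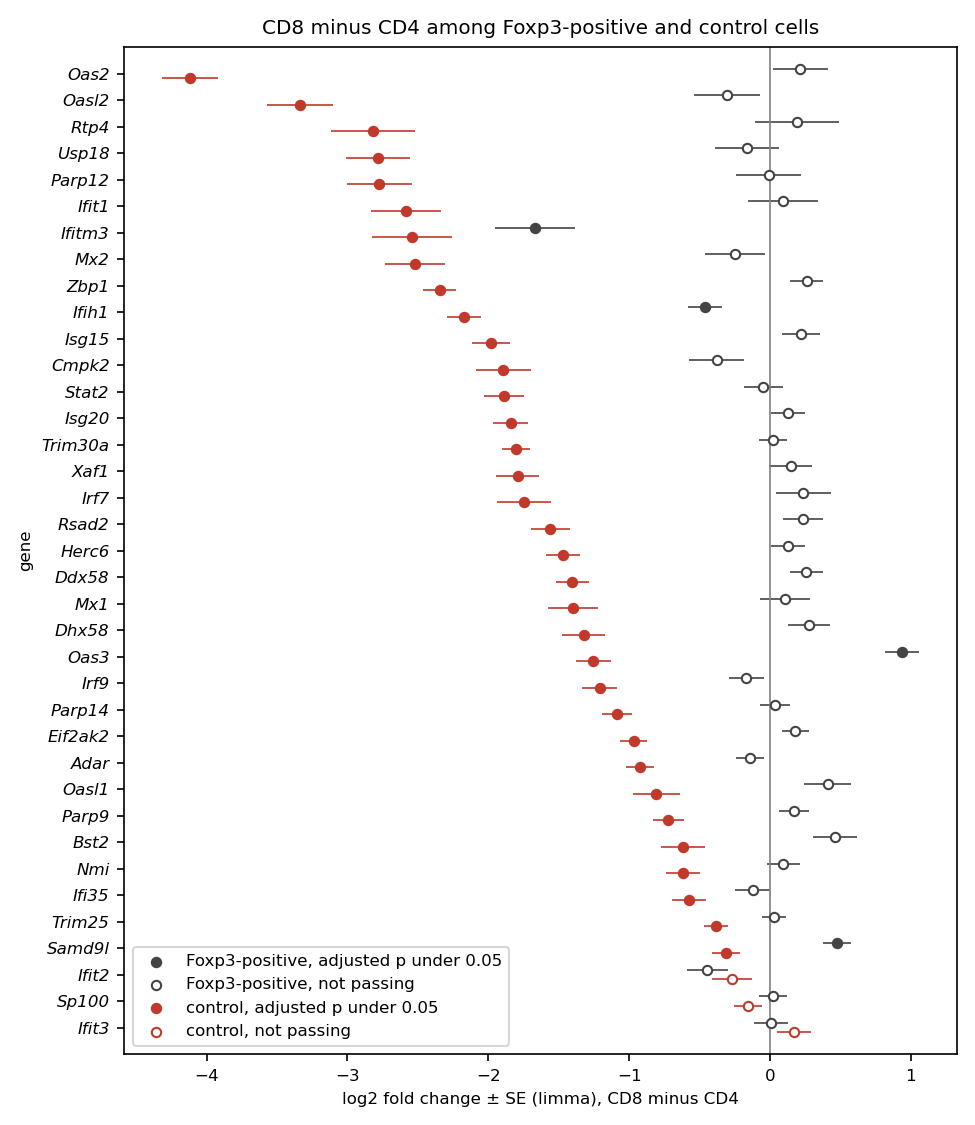
Log2 fold change of CD8 over CD4 cells with its standard error (limma) for the 37 genes, among Foxp3-positive cells (grey) and among controls (red), with filled points at an adjusted p under 0.05. Control values lie below 0 for 36 genes and reach -4.12, while Foxp3-positive values lie between -1.67 and 0.94.

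Genes upstream in the pathway were counted beside the shares of all genes that rose or fell (9.39% and 10.6% in CD8 cells, 12.1% and 10.4% in CD4 cells). Of the receptor chains and kinases 7 of 8 listed genes were measured. By limma 3 rose and none fell in CD8 cells (Ifnar2, Ifngr2 and Jak1), and 4 rose (Ifnar1, Ifnar2, Ifngr1 and Ifngr2) and 1 fell (Jak2) in CD4 cells. Ifnar2, a chain of the type I receptor, rose by 0.47 ± 0.10 (log2, adjusted p = 0.00285) in CD8 and 0.48 ± 0.10 (0.00233) in CD4 cells. Ifngr2, a chain of the interferon-γ receptor, rose by 2.29 ± 0.14 (1.08e-07) and 1.26 ± 0.14 (1.54e-05), and Jak2, its kinase, fell by 1.07 in CD4 cells (2.26e-05) with a CD8 difference of -0.10 (0.668).

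Of the type I interferon genes 16 of 18 were measured, with 1 call in CD8 and 2 in CD4 cells, while 20% and 22.5% of all genes were called. Ifnb1, the first interferon made by most cells, had group means of 3.61 and 3.30 for control and Foxp3-positive CD8 cells and 3.37 and 3.60 for the CD4 groups, and passed in neither comparison. Ifna4 rose by 0.45 ± 0.11 in CD8 cells (limma adjusted p = 0.0121, but 0.0568 without CD8 control A and 0.0601 without CD8 Foxp3-positive A). It fell by 0.72 ± 0.11 in CD4 cells (0.000402), and its mean was 8.63 in CD4 controls against 7.91 in CD4 Foxp3-positive cells. Ifna5 and Ifnz were listed only on probe sets with several gene symbols. Whether the Ifna4 probes also read other genes was not tested. Ifnab rose by 0.74 ± 0.14 in CD4 cells (0.00208), to a mean of 4.18, low on the scale of the arrays.

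Of the genes of interferon induction 11 of 13 were measured, of which 4 rose (Sting1, Mavs, Ikbke and Tlr7) and 1 fell (Cgas) in CD8 cells. In CD4 cells 2 rose (Mavs and Irf3) and 4 fell (Cgas, Tbk1, Myd88 and Ticam1). Of all genes, 20% were called in CD8 and 22.5% in CD4 cells. Mavs, the adaptor of the RNA helicases, rose by 1.34 ± 0.12 in CD8 cells and 1.20 ± 0.12 in CD4 cells (limma adjusted p = 3.13e-06 and 6.24e-06), while the helicases Ifih1, Ddx58 and Dhx58 fell in CD4 cells. Cgas, the sensor of cytosolic DNA, fell by 1.04 ± 0.16 (0.000472) and 0.63 ± 0.16 (0.013). The second of these was 0.0588 without CD4 control A and 0.0507 without CD4 Foxp3-positive C. Tlr7, an endosomal receptor of RNA, rose by 1.63 ± 0.24 in CD8 cells alone (0.000345), with a CD4 difference of 0.05 (0.913). Its group means all lay below the median gene (5.60), from 3.55 in CD8 controls to 5.2 in CD8 Foxp3-positive cells. Whether these levels stand above background was not tested.

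Of 6 negative regulators, 2 rose in CD8 cells (Socs1 and Socs3). In CD4 cells 2 rose (Ptpn6 and Pias1) and 3 fell (Socs3, Ptpn2 and Irf2). The shares of all genes called either way were 20% in CD8 and 22.5% in CD4 cells. Socs3 and Socs1, which inhibit the kinases, rose by 1.12 ± 0.11 and 0.89 ± 0.14 in CD8 cells (limma adjusted p = 1.14e-05 and 0.00064). In CD4 cells Socs3 fell by 0.44 ± 0.11 (0.0115, but 0.0521 without CD4 control C and 0.0564 without CD4 Foxp3-positive B), and Socs1 had a difference of -0.38 (0.0838). Ptpn6, a phosphatase, rose by 0.55 ± 0.09 in CD4 cells (0.000624). Usp18, a member that also damps the receptor, is described above.

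Other interferon-stimulated genes outside the list of members were counted too. Of 55 listed, 48 were measured, and by limma 15 rose and 15 fell in CD8 cells, while 5 rose and 31 fell in CD4 cells, with medians of -0.02 and -0.68. These were 31.2% and 31.2% of the 48 in CD8 cells (9.39% and 10.6% of all genes), and 10.4% and 64.6% in CD4 cells (12.1% and 10.4% of all genes). The 5 were Tnfsf10, which encodes the death ligand TRAIL (2.37 on the log2 scale), Irf8, Sp110, Phf11b and Trim14. Ifi204, a DNA-binding protein, fell in CD4 cells from a mean of 6.59 to 2.26 (limma adjusted p = 1.68e-06). The latter is as low as interferon genes such as Ifna11 (2.19 in the same cells), so no fold is given. Ifitm2, the neighbour and close relative of Ifitm3, fell 7.99-fold in CD8 and 9.39-fold in CD4 cells (1.64e-05 and 5.92e-06), as Ifitm3 did. Rnf213, a large ubiquitin ligase, fell 8.36-fold in CD4 cells (5.79e-09) and by 0.71 ± 0.14 in CD8 cells (0.00213). Between the controls 28 of the 48 were lower in CD8 cells and 4 higher (Ms4a4b, Phf11b, Pttg1 and Epsti1), against 8.76% and 12.1% of all genes.

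The interferon-inducible GTPases, which defend against intracellular pathogens and respond strongly to interferon-γ, were counted by family. The shares of all genes that rose and fell were 9.39% and 10.6% in CD8 cells and 12.1% and 10.4% in CD4 cells. A difference between the families was not tested. Of the guanylate-binding proteins 9 of 10 were measured. In CD4 cells 7 fell and 2 rose (Gbp3 and Gbp5), with a median of -2.05, and in CD8 cells 3 rose (Gbp3, Gbp5 and Gbp8) and none fell, with a median of 0.34. Gbp11 fell 20.6-fold in CD4 cells (limma adjusted p = 3.08e-08), Gbp9 7.24-fold and Gbp10 4.9-fold. Of the list of immunity-related GTPases, which also holds the transcription factor Irf1, 7 of 10 genes were measured. In CD8 cells 6 rose and none fell, and in CD4 cells 2 fell (Irgm1 and Irf1). Iigp1 rose 9.62-fold in CD8 cells (adjusted p = 7.67e-06), from a mean of 6.13 to 9.39, and its CD4 means were 9.75 and 9.91 (adjusted p = 0.769). Gm4951 rose 8.06-fold and Irgm2 2.3-fold in CD8 cells. So for these 3 genes the CD8 controls were the low group and the other 3 groups lay near each other, whereas for most members the CD4 controls were the high group.

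Markers of other cells that the cultures or gates could hold were read beside these results. Of the dendritic cell list 13 of 15 genes were measured, with summed log2 levels of 87.9 to 89.8 in CD8 controls, 86.6 to 87.8 in CD8 Foxp3-positive cells, 87.8 to 89.2 in CD4 controls, then 84.2 to 87.6 among CD4 Foxp3-positive cells. Of these, 5 to 7 in a group lay below the median gene. Batf3, H2-Ab1 and Ly75 fell and Ccr7 rose in CD4 cells. In CD8 cells Itgax (-1.76), Ly75 (-1.66) and Batf3 (-0.96) fell and Ccr7 (1.52), Cd86 (0.62) and Cst3 (0.38) rose, by limma. Itgax, the CD11c chain, had means of 6.53, 4.77, 4.95 and 4.87 in the same order of groups. The plasmacytoid dendritic cell list (8 of 9 measured) summed to 41.3 to 42.7 in CD4 controls, against 43.9 to 45.0 in CD4 Foxp3-positive cells, and to 39.7 to 42.5 and 44.8 to 45.6 in the CD8 groups. Of that list Ccr9 rose by 3.78 and 3.28 on the log2 scale in CD8 and CD4 cells, about as much as these sums or more, and Pacsin1 rose by 0.74 and 0.64. Tcf4 fell in CD8 cells, and Cox6a2 and Ly6d fell in CD4 cells. Siglech and Klk1 had means of 4.71 to 4.80 and 2.84 to 2.95 in the 4 groups, below the median gene. Bst2, a member, is also a surface marker of that cell type. Macrophage and monocyte genes (10 of 12) summed to 50.2 to 54.5, B cell genes (7 of 8) to 33.6 to 36.7 and NK cell genes (5 of 6) to 25.9 to 28.6 over all arrays. Within these sums genes moved in opposite directions: among NK cell genes Eomes fell by 3.19 and 2.37 and Klri2 rose by 2.75 and 2.58 in CD8 and CD4 cells. By limma, 2 of the 10 macrophage and monocyte genes rose and 1 fell in CD8 cells, against 9.39% and 10.6% of all genes. In CD4 cells 1 rose and 1 fell, against 12.1% and 10.4%, and that fall was at least 2-fold. Lyz2 of this list rose by 1.82 and 1.06 in CD8 and CD4 cells. Of the 7 B cell genes, 2 rose in CD8 and 1 in CD4 cells and none fell, with Cd79b at 1.10 and 0.77. The part of such cells in the members' values was not tested.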

How the data were processed

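RNA of 12 sorted T cell samples was measured on Affymetrix arrays. The deposited values are log2 levels per transcript cluster, a set of probes for a gene. Per the submitters' processing notes, the authors made them in Affymetrix Expression Console by RMA, which gives all arrays the same distribution, so a change in total RNA per cell would not show. No version of either, genome build or annotation is given in the sources used here. Scanner files and scan dates were not used here, and the number of arrays limits the precision.

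Of 34365 clusters, 23521 had 1 gene symbol, 1814 several and 9030 none in the platform annotation. The brightest of several clusters stood for a gene, and all 22180 resulting genes were kept whatever their level. One model with 4 group means was fitted to all 12 arrays by limma 3.58.1 (lmFit, then eBayes; R 4.3.3), with two-sided tests and Benjamini-Hochberg adjustment over all genes at a threshold of 0.05. It had 8 residual degrees of freedom and a prior of 4.56. The code was tested on simulated data. Alternatives were other normalizations, filters, weights and estimates of the spread, the mean over clusters, a replicate block, and each array left out.

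The members and the pathway and marker lists were chosen with earlier results of these data known. Values on every array are given for the 16 members with the largest change among those called with at least a 2-fold change in some comparison, and 3 genes are named per pathway list by largest called change. Ifnb1 and Itgax were added outside that rule, as were other genes where a count was 5 or fewer. Promoters were matched by gene ID or symbol to RefSeq sequence of GRCm38.p6.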

Additional observations from a re-analysis of the deposited data

Results flagged for a closer look

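For the following genes the effect of Foxp3-positive over control cells differed between CD8 and CD4 cells, by limma's interaction term. Each value is the CD8 log2 fold change minus the CD4 log2 fold change, over 12 arrays, and the adjusted p-values ran from 1.13e-06 (Zbp1) to 0.0488 (Ifnab). All 32 members named here had the CD8 effect above the CD4 effect.

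The differences were 1.71 for Ifih1, 1.66 for Ddx58, 1.60 for Dhx58, 2.61 for Zbp1, 1.15 for Eif2ak2, 0.41 for Trim25 and 0.78 for Adar, the sensors and their helpers. Transcription factors and partners gave 1.98 for Irf7, 1.04 for Irf9, 1.84 for Stat2 and 0.71 for Nmi. Isg15 gave 2.20, and of its enzymes, ubiquitin ligases and PARPs Usp18 gave 2.62 and Herc6 1.60. Parp9, Parp12, Parp14 and Trim30a gave 0.89, 2.76, 1.12 and 1.82 in that order. The synthetase family gave 4.34 for Oas2, 2.19 for Oas3, 1.22 for Oasl1 and 3.03 for Oasl2, and the Ifit family 2.67 for Ifit1. Other effectors gave 1.51 for Mx1, 2.27 for Mx2, 1.97 for Isg20, 1.79 for Rsad2, 1.52 for Cmpk2, 1.08 for Bst2 and 0.79 for Samd9l. Xaf1 and Rtp4 gave 1.94 and 3.01.

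Among named genes of the pathway lists the values were 1.03 for Ifngr2, 0.97 for Jak2, -0.66 for Ifnab, 1.17 for Ifna4, 1.57 for Tlr7, 1.55 for Socs3, 1.27 for Socs1 and -0.67 for Ptpn6. Downstream they were 3.76 for Ifi204, 2.36 for Rnf213, 3.92 for Gbp11, 3.19 for Gbp9, 2.30 for Gbp10, 3.10 for Iigp1, 3.29 for Gm4951 and 1.18 for Irgm2.

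The call of Ifnab was lost with the omission of any single array other than CD8 control B or CD4 control B (adjusted p = 0.0611 to 0.114). It was also lost with the replicate block (0.0642) and with a trend and robust prior (0.0537).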

How the results depend on the processing

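With single arrays left out, the count of members that passed by limma was 13 to 21 in CD8 cells (17 with all arrays), 31 to 32 in CD4 cells (32), 31 to 32 for the interaction (32), 2 to 5 between Foxp3-positive groups (4) and 33 to 34 between controls (34). The members' medians were 0.00 to 0.10, -1.73 to -1.50, 1.54 to 1.78, 0.06 to 0.10 and -1.67 to -1.36 in that order, the last reaching -1.67 without CD4 control array C. Over all genes, calls between Foxp3-positive groups were 674 without CD8 Foxp3-positive B and 687 without CD4 Foxp3-positive A, against 1044 with all arrays. No result changed direction past the threshold under any setting run. With the replicate block the counts were 16, 32, 31, 3 and 34. Same-lettered arrays deviated from their group means with correlations of -0.10 to 0.14, of which 2 of 18 exceeded 0.1, and the main model did not take the letters as pairs. Between the CD8 groups same letters gave 0.05, 0.13 and 0.14, above all values of different letters (-0.14 to 0.02). Between the CD4 groups they gave 0.01, -0.10 and -0.04, against -0.05 to 0.09. Whether the CD8 arrays were paired cannot be decided from these values. The causes of the changed calls were not tested. A background correction of scanner values and a slide or scan block were not run, since those files were not used here.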

Other observations

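Of the members, 2 were read by more than 1 cluster of probes. The dimmer cluster of Ifi35 had differences of 0.12 in CD8 and -0.40 in CD4 cells, against 0.28 and -0.18 for the brighter one that stood for the gene. The 4 clusters of Sp100, a gene with expanded copies in mice, had CD4 differences of 0.02, -0.06, 0.23 and -0.27 on the log2 scale and did not share a direction.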
